A study of Mus musculus with 18 samples.

Results

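The 6 genes studied here were listed together as monocyte identity genes and were followed through mouse bone marrow of 2 ages before and after irradiation. They are Irf8, Klf4, Csf1r, Ms4a7, Ly86 and F13a1, 6 of the 11884 genes tested on these arrays. The genes were listed by name, and the list was made with earlier results of these data known. Each was read from its brightest probe, and all 6 were well above background on all 18 arrays, so none was lost to a filter on dim signal.

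Total RNA of whole bone marrow from female C3H mice, an inbred laboratory strain, was labelled with Cy3 and hybridised to Agilent mouse arrays, 1 sample per array. The 6 groups held 3 arrays each. Marrow of 8-week-old mice was taken 6 h after 2 Gy, 24 h after 2 Gy and from animals given 0 Gy, and marrow of 1-week-old mice was taken in the same 3 states. Gamma rays were given at 0.6 Gy per min. The labels do not say whether each array stands for a separate mouse, so the p-values measure the spread between arrays, which may in part be technical. Whole marrow mixes many cell types, and a fall in the share of a cell type cannot be told apart from less RNA per cell.

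Monocytes arise in the marrow from progenitors shared with granulocytes and dendritic cells. The transcription factor Irf8 directs these progenitors towards monocytes and dendritic cells and away from neutrophils, and the zinc-finger factor Klf4 acts with it in monocyte differentiation. Csf1r is the receptor for the growth factors Csf1 and Il34, on which monocytes and macrophages depend. Ms4a7 is a membrane protein of the MS4A family found on macrophages, Ly86 (also called MD-1) is a secreted partner of the surface receptor Cd180, and F13a1 is the catalytic subunit of coagulation factor XIII, made by monocytes, macrophages and megakaryocytes.

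The 250 bases before the start site are shown for 4 genes, because 3 of them (Irf8, Ly86, F13a1) shared a large step with age and Ms4a7 moved with irradiation instead. They are RefSeq sequences of build GRCm38.p6, written 5′ to 3′ on the gene's strand. The windows lie at chr8:120736108-120736357 (plus strand, Irf8), chr13:37345095-37345344 (plus strand, Ly86), chr13:37050245-37050494 (minus strand, F13a1) and chr19:11336147-11336396 (minus strand, Ms4a7). Capitals mark matches on either strand to 3 short motifs. The first is GAGGAA, a core recognised by ETS factors such as the myeloid factor Spi1. Another is the promoter element TATAAA, which places the start of transcription. The last is the GC-rich element GGGCGG, which zinc-finger factors of the Sp family recognise.
Irf8: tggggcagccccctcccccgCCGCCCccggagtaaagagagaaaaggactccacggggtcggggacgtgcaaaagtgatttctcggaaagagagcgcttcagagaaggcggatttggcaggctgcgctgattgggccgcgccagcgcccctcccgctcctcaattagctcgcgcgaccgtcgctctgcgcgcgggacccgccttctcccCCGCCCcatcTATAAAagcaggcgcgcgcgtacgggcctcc
Ly86: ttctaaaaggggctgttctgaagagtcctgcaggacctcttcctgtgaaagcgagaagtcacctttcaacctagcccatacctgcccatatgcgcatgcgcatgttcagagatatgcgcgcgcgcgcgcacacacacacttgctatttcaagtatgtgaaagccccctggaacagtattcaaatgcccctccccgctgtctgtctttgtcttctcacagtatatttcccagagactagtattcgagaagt
F13a1: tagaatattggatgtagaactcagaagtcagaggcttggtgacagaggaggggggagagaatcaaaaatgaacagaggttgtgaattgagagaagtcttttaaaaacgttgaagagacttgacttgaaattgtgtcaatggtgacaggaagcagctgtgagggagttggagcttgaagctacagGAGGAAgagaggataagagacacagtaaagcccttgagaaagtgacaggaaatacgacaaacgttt
Ms4a7: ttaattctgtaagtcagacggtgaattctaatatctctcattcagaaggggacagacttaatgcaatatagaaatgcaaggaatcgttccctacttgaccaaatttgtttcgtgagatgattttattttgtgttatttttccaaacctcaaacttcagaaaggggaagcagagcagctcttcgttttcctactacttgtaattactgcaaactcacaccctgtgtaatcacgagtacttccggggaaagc
Irf8 carried 1 TATAAA match, at position -31 from the start, and 2 GGGCGG matches. F13a1 carried 1 GAGGAA match, at position -66 from the start. Neither Ly86 nor Ms4a7 held any of the 3 motifs in this window, and no match overlapped a match of another motif. Of 32851 mouse promoters of the same length, 23.3% held GAGGAA, 12.4% TATAAA and 32.7% GGGCGG. No motif was thus common to Irf8, Ly86 and F13a1, the 3 genes chosen for their large step with age. Klf4, also higher with age in unirradiated marrow but not shown here, carried 4 GGGCGG matches and so shared that motif with Irf8. These matches say nothing about the factors that bind there.

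All levels below are log2 signal minus the array's 75th percentile, so a level of 0 lies at that percentile, and they compare arrays for 1 gene and not genes with each other. Between 21017 and 25552 of 41174 probes were well above background per array. Within groups, arrays had pairwise r of 0.9921 to 0.9967. Replicate 2 of the unirradiated 1-week marrow was the exception (r = 0.978 and 0.98 with its group), where a list of 15 muscle and cartilage genes averaged 5.12, against -1.63 and -0.8 on the other 2 arrays. The irradiation labels were checked on 11 target genes of p53, the factor that DNA damage activates, of which 11, 11, 11 and 10 rose at 1 week 6 h, 1 week 24 h, 8 weeks 6 h and 8 weeks 24 h. Within some groups the 6 genes were shifted together on 1 array. Replicate 3 of 8 weeks 6 h was the lowest of its group for 6 of 6 genes, while replicate 3 of 8 weeks 24 h and replicate 2 of the unirradiated 8-week marrow were each the highest for 6 of 6.

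**Figure D1:**
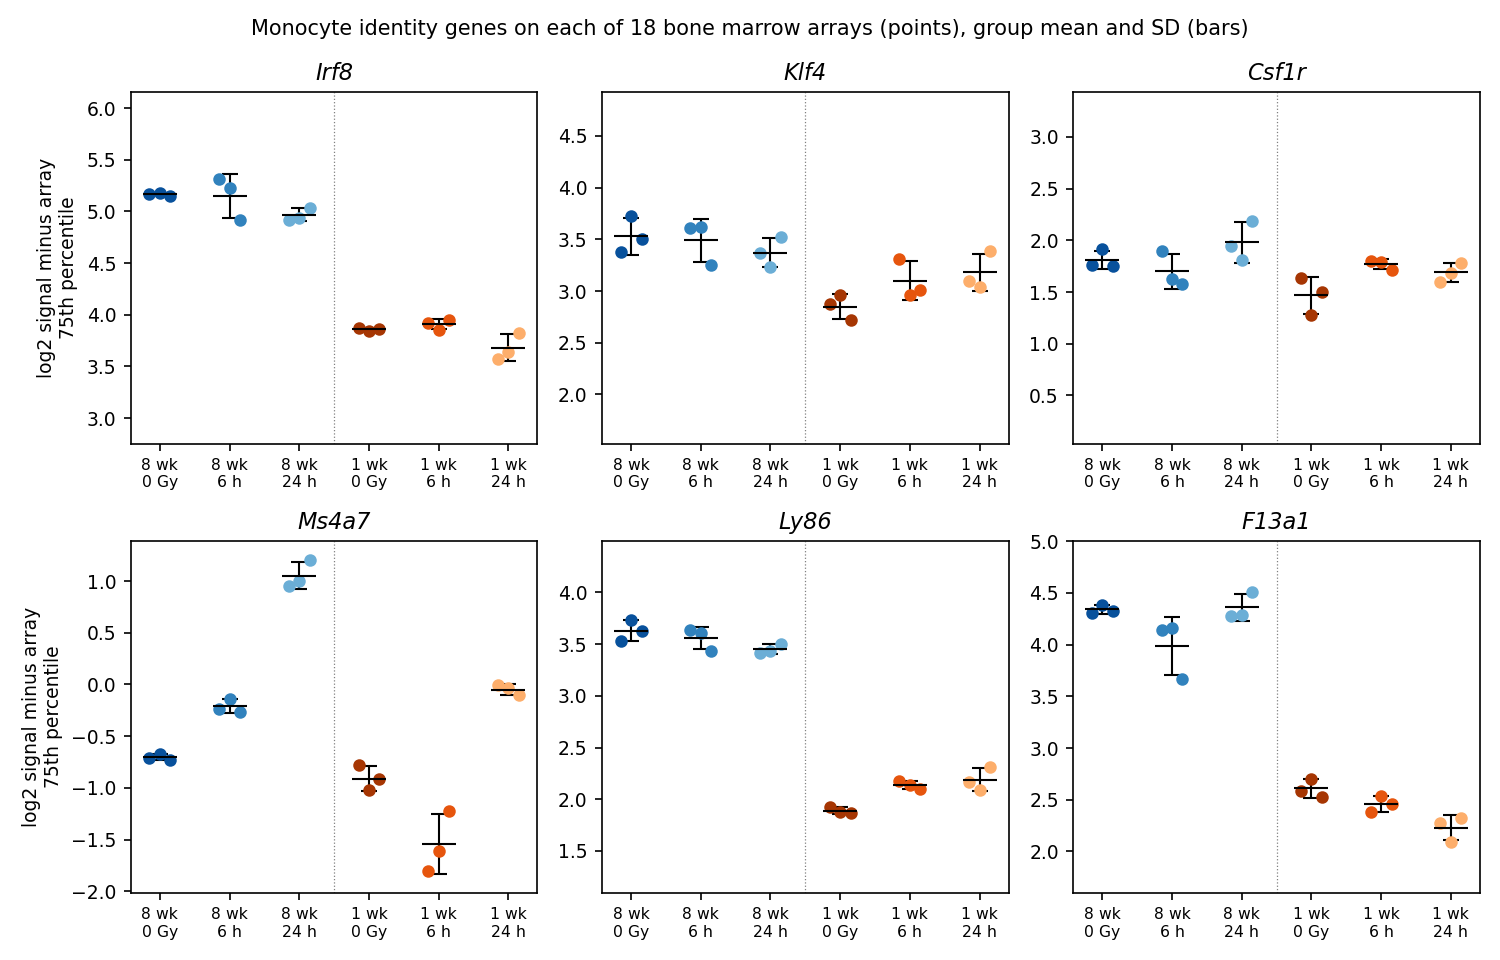
Level of each gene on each array (points), as log2 signal minus the array's 75th percentile, with group mean and SD as black bars (n = 3); all panels span the same height. Irf8, Ly86 and F13a1 form an upper band at 8 weeks and a lower band at 1 week, whereas Ms4a7 runs from -0.70 to 1.05 (group means) between unirradiated and 24 h marrow at 8 weeks.

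Age separated most of these genes in unirradiated marrow. Irf8, Klf4, Csf1r, Ly86 and F13a1 were higher at 8 weeks than at 1 week, 5 of the 6 genes, and Ms4a7 was not called. In this comparison 64.9% of all tested genes were called and 27.4% were called higher (37.5% lower). The median difference of the 6 genes was 1 log2 unit, against -0.09 for all tested genes. Differences are given on the log2 scale ± standard error from the limma fit across all genes, with p-values adjusted over the 11884 tested genes.

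Irf8 stood at 5.17, 5.18 and 5.15 on the unirradiated 8-week arrays, 5.31, 5.23 and 4.92 at 6 h and 4.92, 4.94 and 5.03 at 24 h. In 1-week marrow it stood at 3.87, 3.84 and 3.86 unirradiated, 3.92, 3.85 and 3.95 at 6 h and 3.57, 3.64 and 3.82 at 24 h. All 9 arrays at 8 weeks lay above all 9 at 1 week. The level in unirradiated marrow was 2.48-fold higher at 8 weeks (difference 1.31 ± 0.08, limma adjusted p = 1.13e-09). In the order of group means, 8 weeks unirradiated, 6 h and 24 h came first and 1 week 6 h, unirradiated and 24 h followed. The gap between the ages in that order was 1.06 (adjusted p = 6.16e-09), and no other pair of neighbours passed the test (adjusted p = 0.0715 to 0.863).

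Ly86 stood at 3.53, 3.73 and 3.63 on the unirradiated 8-week arrays, 3.64, 3.61 and 3.43 at 6 h and 3.41, 3.43 and 3.5 at 24 h. In 1-week marrow it stood at 1.92, 1.88 and 1.87 unirradiated, 2.18, 2.14 and 2.1 at 6 h and 2.17, 2.09 and 2.31 at 24 h. The unirradiated level was 3.34-fold higher at 8 weeks (1.74 ± 0.07, adjusted p = 5.78e-12), and again no 8-week array fell among the 1-week arrays. Neighbouring groups differed at the step between the ages (1.25, adjusted p = 1.91e-10) and between 1 week 6 h and unirradiated (0.25, adjusted p = 0.00565).

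F13a1 stood at 4.31, 4.38 and 4.33 on the unirradiated 8-week arrays, 4.14, 4.16 and 3.67 at 6 h and 4.28, 4.29 and 4.51 at 24 h. In 1-week marrow it stood at 2.58, 2.7 and 2.53 unirradiated, 2.38, 2.54 and 2.46 at 6 h and 2.27, 2.09 and 2.32 at 24 h. Its unirradiated level was 3.32-fold higher at 8 weeks (1.73 ± 0.11, adjusted p = 1.21e-09). F13a1 is also a gene of megakaryocytes and platelets. Between the same groups 14 of 16 other megakaryocyte and platelet genes fell and 1 rose (median -1.1), where 37.5% of all genes were called lower. The mean of that list was 1 to 1.4 on the unirradiated 8-week arrays, against 1.77 to 2.33 on the 1-week arrays. The part of megakaryocytes and platelets in the F13a1 difference was not tested.

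Klf4 stood at 3.38, 3.73 and 3.5 on the unirradiated 8-week arrays, 3.61, 3.62 and 3.25 at 6 h and 3.37, 3.23 and 3.52 at 24 h. In 1-week marrow it stood at 2.87, 2.96 and 2.72 unirradiated, 3.31, 2.96 and 3.01 at 6 h and 3.1, 3.04 and 3.39 at 24 h. The unirradiated 8-week arrays lay above the 1-week ones (1.61-fold, 0.69 ± 0.13, adjusted p = 0.000164), but irradiated arrays of the ages overlapped. Along the order of group means no neighbouring pair passed the test (adjusted p = 0.109 to 0.816). Klf4 is also expressed by endothelium. Between the unirradiated groups 12 of 14 endothelial genes fell with age and 1 rose (median -1.29), where 37.5% of all genes were called lower. The part of endothelial cells in the Klf4 difference was not tested. The endothelial gene Klf2, a relative of Klf4, differed by -0.08 ± 0.19 (adjusted p = 0.717).

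Csf1r stood at 1.76, 1.92 and 1.75 on the unirradiated 8-week arrays, 1.9, 1.63 and 1.58 at 6 h and 1.95, 1.81 and 2.19 at 24 h. In 1-week marrow it stood at 1.64, 1.28 and 1.5 unirradiated, 1.8, 1.79 and 1.71 at 6 h and 1.6, 1.68 and 1.78 at 24 h. The lowest array of all was the unirradiated 1-week replicate with muscle and cartilage transcript. The age difference was small (1.26-fold, 0.33 ± 0.11, adjusted p = 0.0113), and without that replicate it was 0.24 and no longer called (adjusted p = 0.0682), nor was it without replicate 2 of the 8-week controls (0.28, adjusted p = 0.0539). With the mean of all Csf1r probes it was 0.15 and not called (adjusted p = 0.208). A second probe for Csf1r gave 0.27 (adjusted p = 0.0397) and another, also well above background on 18 arrays with a mean level of -3.46, gave -0.15 (adjusted p = 0.53). No neighbouring pair of groups passed the test (adjusted p = 0.131 to 0.897).

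Ms4a7 stood apart. On the unirradiated arrays it was at -0.71, -0.67 and -0.73 at 8 weeks and at -0.78, -1.02 and -0.91 at 1 week. The arrays did not overlap, but the difference of 0.21 ± 0.11 did not pass the test (adjusted p = 0.12, 95% interval -0.03 to 0.44).

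**Figure D2:**
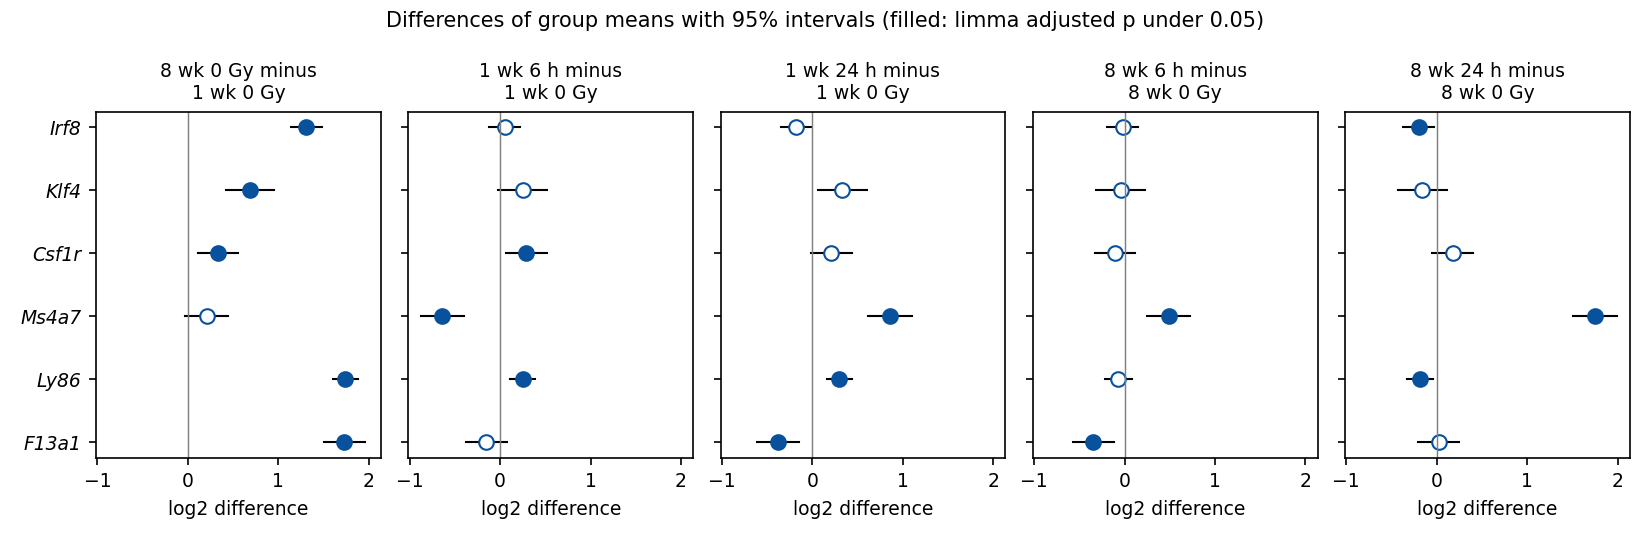
Log2 differences of group means (points) with 95% intervals (lines) for the age comparison and the 4 irradiation comparisons, filled where the limma adjusted p was under 0.05. Irf8, Ly86 and F13a1 have age differences of 1.31 to 1.74, whereas in the irradiation panels only Ms4a7 lies beyond 0.4 in either direction.

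Other monocyte genes differed with age in the same direction. Of 27 classical monocyte genes tested, 25 were higher and 1 was lower at 8 weeks (median 1.1), among them the monocyte chemokine Ccl9 (1.67) and the oxidase subunit Cybb (1.45). Among 16 genes of monocyte and granulocyte progenitors 14 were higher and 0 lower (median 0.72), with the protease gene Elane at 1.52. Dendritic cell genes, several of which depend on Irf8, were higher in 12 of 16 and lower in 0 (median 1.71). Non-classical monocyte genes were higher in 8 of 15 and lower in 1 (median 0.39). Late neutrophil genes were higher in 16 of 19 and lower in 2 (median 1.15). B-lineage genes were higher in 15 of 20 and lower in 2 (median 0.57). A rise with age was thus also seen in lists outside the monocyte lineage. Of all tested genes 27.4% were called higher and 37.5% lower. The part that a changed mix of cells has in the members' differences was not tested.

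Partners of Irf8 differed with age, whereas ligands of Csf1r were not called. Spi1, the ETS factor that works with Irf8, was higher at 8 weeks by 0.84 ± 0.10 (adjusted p = 1.8e-06), and Cebpa, a factor of granulocyte and monocyte progenitors, by 1.09 ± 0.11 (adjusted p = 4.05e-07). Csf1, the ligand of Csf1r, differed by 0.08 ± 0.08 (adjusted p = 0.395) and Il34 by 0.38 ± 0.40 (adjusted p = 0.425). Il34 stood at -1.79, -2.39 and -2.62 on the unirradiated 8-week arrays and at -3.2, -1.37 and -3.36 at 1 week. The -1.37 was from the replicate with muscle and cartilage transcript, which narrowed the difference and widened its spread. Cd180, the receptor that Ly86 binds, differed by 0.58 ± 0.36 (adjusted p = 0.171). In the whole list of 26 tested ligands, partners and regulators 17 were higher and 4 lower (median 0.64). F13b, the carrier subunit of factor XIII, was too dim to test.

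After irradiation the response of these genes was small except in Ms4a7. At 1 week 6 h, Ly86 and Csf1r rose and Ms4a7 fell, 3 of 6 genes called where 51.8% of all tested genes were. At 1 week 24 h, Ms4a7 and Ly86 rose and F13a1 fell (3 of 6, 36.0% of all). At 8 weeks 6 h, Ms4a7 rose and F13a1 fell (2 of 6, 46.0% of all, 22.1% lower). At 8 weeks 24 h, Ms4a7 rose and Irf8 and Ly86 fell (3 of 6, 57.8% of all, 19.5% lower). Each count lies within 1 gene of the share of all genes, and the medians over the 6 genes were 0.15, 0.26, -0.06 and -0.07 in the same order, against 0, -0.01, 0.02 and 0.12 for all tested genes.

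Ms4a7 was at -0.24, -0.14 and -0.27 on the 8-week arrays at 6 h and at 0.95, 1 and 1.2 at 24 h, against -0.71, -0.67 and -0.73 unirradiated. In 1-week marrow it was at -1.8, -1.61 and -1.22 at 6 h and at -0.01, -0.03 and -0.1 at 24 h, against -0.78, -1.02 and -0.91 unirradiated. No array of an irradiated group overlapped its own control. At 6 h the direction depended on age, with a rise at 8 weeks and a fall at 1 week.

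At 8 weeks 24 h Ms4a7 was 3.36-fold above control (1.75 ± 0.11, adjusted p = 2.69e-09), and at 8 weeks 6 h it was 1.4-fold above control (0.49 ± 0.11, adjusted p = 0.00239). At 1 week it was 1.55-fold below control at 6 h (-0.64 ± 0.11, adjusted p = 0.000177) and 1.81-fold above it at 24 h (0.86 ± 0.11, adjusted p = 1.96e-05). The response differed between the ages by 1.12 ± 0.16 at 6 h (adjusted p = 0.000251) and by 0.89 ± 0.16 at 24 h (adjusted p = 0.000389). Between 6 h and 24 h it rose at both ages, by 1.26 ± 0.11 at 8 weeks and 1.49 ± 0.11 at 1 week (adjusted p = 2.41e-07 and 1.37e-07). In the order of group means 8 weeks 24 h came first, then 1 week 24 h, 8 weeks 6 h, 8 weeks unirradiated, 1 week unirradiated and 1 week 6 h. Of the 5 neighbouring pairs, 1 week 24 h and 8 weeks 6 h did not pass the test (0.17, adjusted p = 0.204), nor did the 2 unirradiated groups.

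The same calls were made on a second Ms4a7 probe, with differences of 1.74 at 8 weeks 24 h, 0.53 at 8 weeks 6 h, -0.55 at 1 week 6 h and 0.82 at 1 week 24 h. Arrays of both groups on the same slide gave 1.92 at 8 weeks 24 h, 0.44 at 8 weeks 6 h, -1.01 at 1 week 6 h, and 1.02 and 0.88 at 1 week 24 h. All 8 called differences of Ms4a7 kept their direction and their call in every alternative and with each array left out in turn.

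Within each age, genes of resident marrow macrophages, the cells that clear dying blood cells, moved in the same order as Ms4a7. Of 19 tested, 19 rose and 0 fell at 8 weeks 24 h (median 1.39), where 38.3% of all genes were called higher and the median of all genes was itself 0.12. At 8 weeks 6 h, 17 rose and 0 fell (median 0.51, 23.9% of all called higher). At 1 week 6 h, 13 fell and 2 rose (median -0.4, 26.3% of all called lower), and at 1 week 24 h, 16 rose and 0 fell (median 0.55, 18.4% of all called higher). Without the unirradiated 1-week replicate that carried muscle transcript, the 1-week 6 h counts were 11 lower and 1 higher. Other lists rose at 8 weeks 24 h too. There 19 of 19 late neutrophil, 15 of 16 megakaryocyte and platelet and 11 of 14 endothelial genes rose, and none fell. Of 20 B-lineage genes 18 fell there. Late neutrophil genes also rose in 18 of 19 at 8 weeks 6 h, and in 19 at 1 week 6 h and 24 h.

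The mean of those 19 genes was 2.41 to 2.52 at 8 weeks 24 h and 1.52 to 1.6 at 8 weeks 6 h, against 0.77 to 0.98 in unirradiated 8-week marrow. At 1 week it was 0.73 to 0.83 at 24 h and -0.57 to -0.23 at 6 h, against 0.07 to 0.19 unirradiated. Over the 9 arrays of an age, Ms4a7 and the list mean correlated at r = 0.982 at 8 weeks and r = 0.971 at 1 week, where the points share the 3 treatment groups. At 8 weeks Ms4a7 also correlated with the progenitor (0.936), endothelial (0.87) and late neutrophil (0.831) lists. At 1 week the same lists gave 0.224, 0.202 and 0.123. Dendritic cell, B-lineage and muscle and cartilage lists gave negative r at 8 weeks (-0.862, -0.904 and -0.232). In the age comparison, where Ms4a7 was not called, 15 of the 19 macrophage genes were higher and 1 was lower. The part of any of these lists in the Ms4a7 result was not tested.

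**Figure D3:**
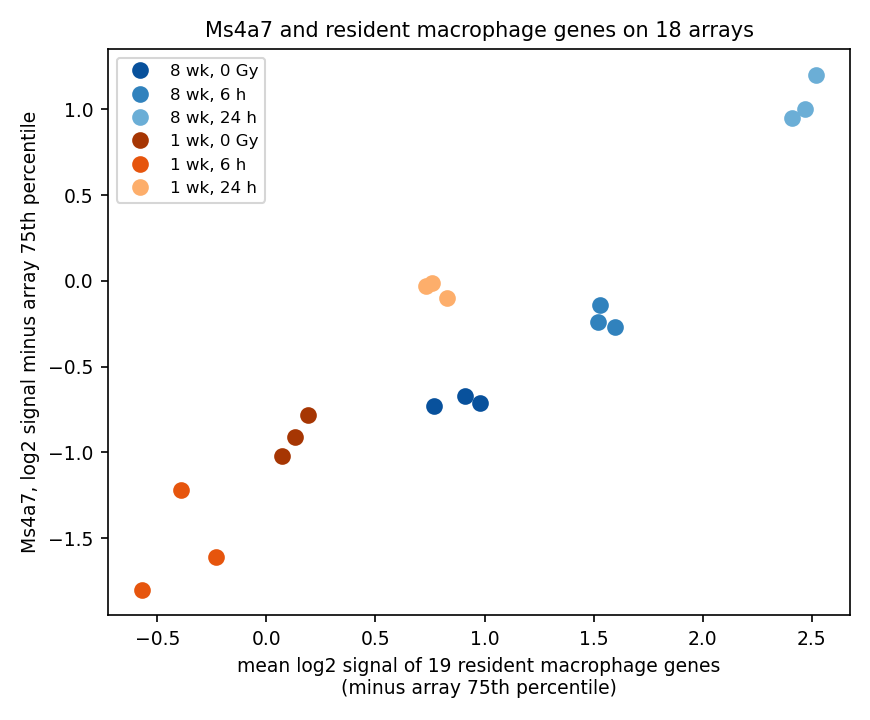
Ms4a7 level against the mean level of 19 resident macrophage genes on each of the 18 arrays, both as log2 signal minus the array's 75th percentile, coloured by group. At 1 week the 6 h arrays sit lowest and the 24 h arrays highest, and at 8 weeks the points climb through unirradiated, 6 h and 24 h.

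Genes of that list differed in where they were called. Marco, a scavenger receptor, was above control by 3.32 ± 0.14 at 8 weeks 24 h and 1.88 ± 0.14 at 8 weeks 6 h (adjusted p = 1.8e-11 and 3.69e-08), and by 1.23 ± 0.14 at 1 week 24 h (adjusted p = 3.72e-06), but at 1 week 6 h it differed by -0.04 (adjusted p = 0.822). Spic, the factor of red-pulp and marrow macrophages, was above control by 1.91 ± 0.08 at 8 weeks 24 h, 1.16 ± 0.08 at 8 weeks 6 h and 0.95 ± 0.08 at 1 week 24 h, and below it by -0.21 ± 0.08 at 1 week 6 h (adjusted p = 0.0307). C1qa, a chain of the first complement component, was below control by -1.64 ± 0.14 at 1 week 6 h (adjusted p = 1.03e-07) and above it by 1.47 ± 0.14 at 8 weeks 24 h (adjusted p = 1.75e-07). It was not called at 8 weeks 6 h (0.26, adjusted p = 0.13) or at 1 week 24 h (0.11, adjusted p = 0.554).

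Ly86 moved in opposite directions at the 2 ages at 24 h. At 1 week it rose by 0.25 ± 0.07 at 6 h (adjusted p = 0.00565) and by 0.30 ± 0.07 at 24 h (adjusted p = 0.00248), with no overlap between irradiated and unirradiated arrays. At 8 weeks it fell at 24 h by 0.18 ± 0.07 (adjusted p = 0.028) and was not called at 6 h (-0.07, 95% interval -0.21 to 0.08). The 24 h response was lower at 8 weeks than at 1 week by -0.48 ± 0.10 (adjusted p = 0.000861), and the 6 h response by -0.32 ± 0.10 (adjusted p = 0.0311). The fall at 8 weeks 24 h lost its call without replicate 2 or 3 of the controls or replicate 1 or 2 of 24 h (-0.19 to -0.13). The 6 h age difference lost it with any of 7 of 12 arrays left out (-0.32 to -0.25 in those 7) and with slide as a block (-0.21, adjusted p = 0.134). Both rises at 1 week and the 24 h age difference kept theirs throughout.

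F13a1 fell by 0.38 ± 0.11 at 1 week 24 h (adjusted p = 0.0108) and by 0.35 ± 0.11 at 8 weeks 6 h (adjusted p = 0.0146). The second of these leaned on replicate 3 of 8 weeks 6 h, at 3.67, without which the difference was -0.18 (adjusted p = 0.0781). Without replicate 2 of 1 week 24 h the first was -0.31 (adjusted p = 0.0572). At 8 weeks 24 h F13a1 was not called against control, with a difference of 0.02 (95% interval -0.21 to 0.25), and stood above 8 weeks 6 h by 0.37 ± 0.11 (adjusted p = 0.00944). That became 0.20 without the same 6 h array and 0.29 without replicate 3 of 24 h (adjusted p = 0.0506 and 0.0532), and 0.24 with quantile normalization (adjusted p = 0.085). The 24 h response was higher at 8 weeks than at 1 week by 0.40 ± 0.15 (adjusted p = 0.0438), a call lost with any of 8 of 12 arrays left out (0.33 to 0.45 over all 12) and in 7 of 12 other settings, among them quantile normalization (0.24, adjusted p = 0.226). At 8 weeks 24 h, 15 of 16 megakaryocyte and platelet genes rose (median 0.72), where 38.3% of all genes were called higher.

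Irf8 showed small differences with irradiation. It was 1.15-fold below control at 8 weeks 24 h (-0.20 ± 0.08, adjusted p = 0.0413), a call lost when any array but replicate 3 of 24 h was left out (-0.24 to -0.18 over the 6). It was also lost with slide as a block (-0.22, adjusted p = 0.0501), with normexp background correction, without a filter on dim probes, without an intensity trend and with a replicate block (adjusted p = 0.0548 to 0.112 in these 4). A second probe gave -0.29 (adjusted p = 0.0211). At 6 h it differed by -0.02 at 8 weeks (95% interval -0.19 to 0.15) and 0.05 at 1 week (-0.12 to 0.22). At 1 week 24 h the difference was -0.18 (adjusted p = 0.102) against control and -0.23 (adjusted p = 0.036) against 6 h, and the second of these became -0.16 (adjusted p = 0.187) with slide as a block and was lost without replicate 1 or 3 of 6 h or replicate 1 or 2 of 24 h (-0.22 to -0.18). Irf4, the closest relative of Irf8, fell in all 4 irradiation comparisons, by 2.02 ± 0.12 at 8 weeks 24 h, 1.59 ± 0.12 at 8 weeks 6 h, 1.58 ± 0.12 at 1 week 24 h and 0.97 ± 0.12 at 1 week 6 h. Irf4 is also a gene of B cells. Of 20 B-lineage genes 18, 16, 14 and 14 fell in the same comparisons while 0, 1, 2 and 3 rose. In the same order 19.5%, 22.1%, 17.6% and 26.3% of all genes were called lower. Over the 9 arrays of an age, the mean of that list correlated with Irf8 at r = 0.653 (8 weeks) and 0.572 (1 week). With Ly86 it correlated at r = 0.747 and -0.825, where the points share treatment groups. Of 16 dendritic cell genes 6, 4, 1 and 2 fell in the same 4 comparisons while 3, 2, 6 and 7 rose. In that order 38.3%, 23.9%, 18.4% and 25.5% of all genes were called higher. The dendritic cell mean correlated with Irf8 at r = 0.821 (8 weeks) and 0.175 (1 week), and with Ly86 at 0.795 and 0.704. The part of B cells or dendritic cells in these values was not tested.

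Klf4 was called in none of the 4 irradiation comparisons by limma, with differences of -0.16 at 8 weeks 24 h, -0.04 at 8 weeks 6 h, 0.33 at 1 week 24 h and 0.25 at 1 week 6 h. The 1 week 24 h difference was called in 4 of 12 other settings, among them slide as a block (adjusted p = 0.0319, against 0.0524 without). At 1 week the irradiated arrays did not overlap the unirradiated ones, though the nearest pair (6 h and unirradiated) stood at 2.96 each to 2 decimals. The 24 h response was lower at 8 weeks than at 1 week by -0.49 ± 0.18 (adjusted p = 0.0374), a call lost with any of 7 of 12 arrays left out (-0.57 to -0.38 over all 12) and in 4 of 12 other settings.

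Csf1r was above control at 1 week 6 h by 0.29 ± 0.11 (adjusted p = 0.0285). The call was lost without either replicate 1 or replicate 2 of 6 h (0.28 each) too. The difference was 0.20 without the muscle-rich control replicate and 0.16 with slide as a block, and neither was called (adjusted p = 0.144 and 0.15). A second probe gave 0.52 (adjusted p = 0.000805), and with it the 6 h response also differed between ages (-0.56, adjusted p = 0.0198), which the brightest probe did not call (-0.40, adjusted p = 0.0764). The remaining probe called neither, at 0.15 (adjusted p = 0.543) and -0.04 (adjusted p = 0.933). The other irradiation differences of Csf1r were not called, at 0.18 (8 weeks 24 h), -0.10 (8 weeks 6 h) and 0.21 (1 week 24 h). With slide as a block the first was 0.22 and called (adjusted p = 0.0424). At 8 weeks it was higher at 24 h than at 6 h by 0.28 ± 0.11 (adjusted p = 0.0383), where the arrays overlapped and the call was lost without replicate 2 or 3 of 6 h or replicate 1 or 3 of 24 h (0.18 to 0.29). It was also lost in 6 of 12 other settings, among them the mean of all probes (0.14, adjusted p = 0.275) and quantile normalization (0.22, adjusted p = 0.0994).

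Its ligand Csf1 rose at each time and age, while Csf1r itself was called in 1 of the 4 comparisons. Csf1 stood at 0.94, 1.02 and 0.84 at 8 weeks 24 h and at 0.43, 0.5 and 0.66 at 6 h, against 0.03, -0.02 and -0.11 unirradiated. The differences from control were 0.97 ± 0.08 at 8 weeks 24 h and 0.56 ± 0.08 at 8 weeks 6 h (adjusted p = 5.42e-08 and 4.8e-05), and 0.69 ± 0.08 at 1 week 24 h and 0.49 ± 0.08 at 1 week 6 h (adjusted p = 6.1e-06 and 0.0001). Spi1 was above control by 0.34 to 0.46 in the 4 comparisons, each called. Of the 26 ligands, partners and regulators, 15 rose and 2 fell at 8 weeks 24 h, and 13 and 2 at 8 weeks 6 h. At 1 week the counts were 14 and 2 at 24 h, and 12 and 2 at 6 h. In the same order 38.3%, 23.9%, 18.4% and 25.5% of all genes were called higher.

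**Figure D4:**
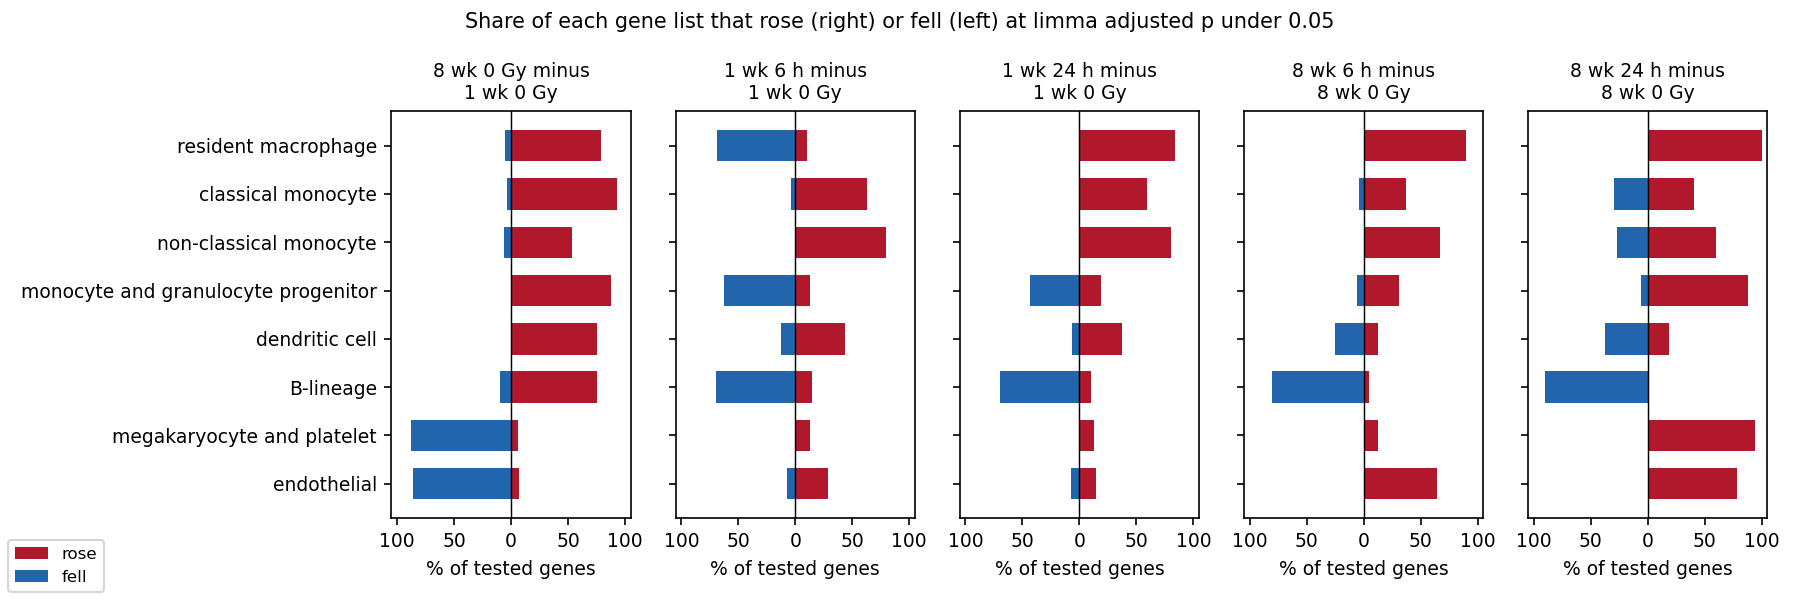
Percent of the tested genes of 8 lists that rose (right, red) or fell (left, blue) at limma adjusted p under 0.05, in the age comparison and the 4 irradiation comparisons. Resident macrophage genes swing left only at 1 week 6 h, and 25 of 27 classical monocyte genes were higher at 8 weeks than at 1 week.

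Classical and non-classical monocyte genes mostly rose where they were called, and at 8 weeks 24 h some of both lists fell. Classical monocyte genes rose in 11 and fell in 8 of 27 at 8 weeks 24 h, rose in 10 and fell in 1 at 8 weeks 6 h, rose in 16 and fell in 0 at 1 week 24 h, and rose in 17 and fell in 1 at 1 week 6 h (medians 0.12, 0.1, 0.3 and 0.42). At 8 weeks 24 h the chemokine receptor Ccr2 was below control by -0.62 and the fibronectin gene Fn1 by -1.21, both called. The 24 h response of the list differed between ages in 11 genes, near the 42.1% of all genes called there. It was lower at 8 weeks in 9 of 27 and higher in 2, against 13.5% of all genes lower and 28.5% higher. The 11 that rose at 8 weeks 24 h are near the 38.3% called higher, while 8 of 27 fell against 19.5% of all genes. Non-classical monocyte genes rose in 9 and fell in 4 of 15 at 8 weeks 24 h, with Cx3cr1, the fractalkine receptor, at -0.74. In that list 10 rose and 0 fell at 8 weeks 6 h, and 12 rose and 0 fell at 1 week at 24 h and again at 6 h. Progenitor genes rose in 14 and fell in 1 of 16 at 8 weeks 24 h, and rose in 5 and fell in 1 at 8 weeks 6 h. At 1 week 3 of them rose and 7 fell at 24 h, and 2 rose and 10 fell at 6 h. Of all tested genes 38.3% rose and 19.5% fell at 8 weeks 24 h, and 23.9% and 22.1% at 8 weeks 6 h. At 1 week 18.4% rose and 17.6% fell at 24 h, and 25.5% and 26.3% at 6 h.

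Of the 6 genes, 2 were called for a different 6 h response between the ages (Ms4a7 higher, Ly86 lower at 8 weeks, 18.6% of all genes called, 10.5% higher and 8.09% lower), and 4 for a different 24 h response (Ms4a7 and F13a1 higher, Ly86 and Klf4 lower, 42.1% of all, 28.5% higher and 13.5% lower). From 6 h to 24 h, 3 of 6 genes were called at 8 weeks (Ms4a7, F13a1 and Csf1r, 49.4% of all, 33.0% higher) and 2 at 1 week (Ms4a7 higher, Irf8 lower, 36.2% of all, 18.6% higher and 17.6% lower). Comparisons with the same control share its 3 arrays, so their values are not independent of each other.

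Within an age the 6 genes did not vary as a block. Over 18 arrays Irf8, Ly86 and F13a1 correlated at r = 0.955 to 0.976, but the points fall in 2 age clusters. Over the 9 arrays at 8 weeks and the 9 at 1 week, Irf8 and Ly86 correlated at r = 0.861 and -0.194, Ly86 and F13a1 at r = 0.275 and -0.629, and Irf8 and F13a1 at r = 0.232 and 0.631. Klf4 and Ly86 were alike at both ages (r = 0.893 and 0.872). Ms4a7 ran against Irf8 at both ages (r = -0.623 and -0.78). With the mean of 27 classical monocyte genes, Ms4a7 gave r = 0.269 at 8 weeks and -0.138 at 1 week. In the same order Irf8 gave 0.534 and 0.0127, and F13a1 0.349 and -0.485. Ly86 gave 0.385 and 0.912, Klf4 0.623 and 0.78, and Csf1r 0.468 and 0.858. These are descriptions over arrays that share treatment groups and scaling.

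**Figure D5:**
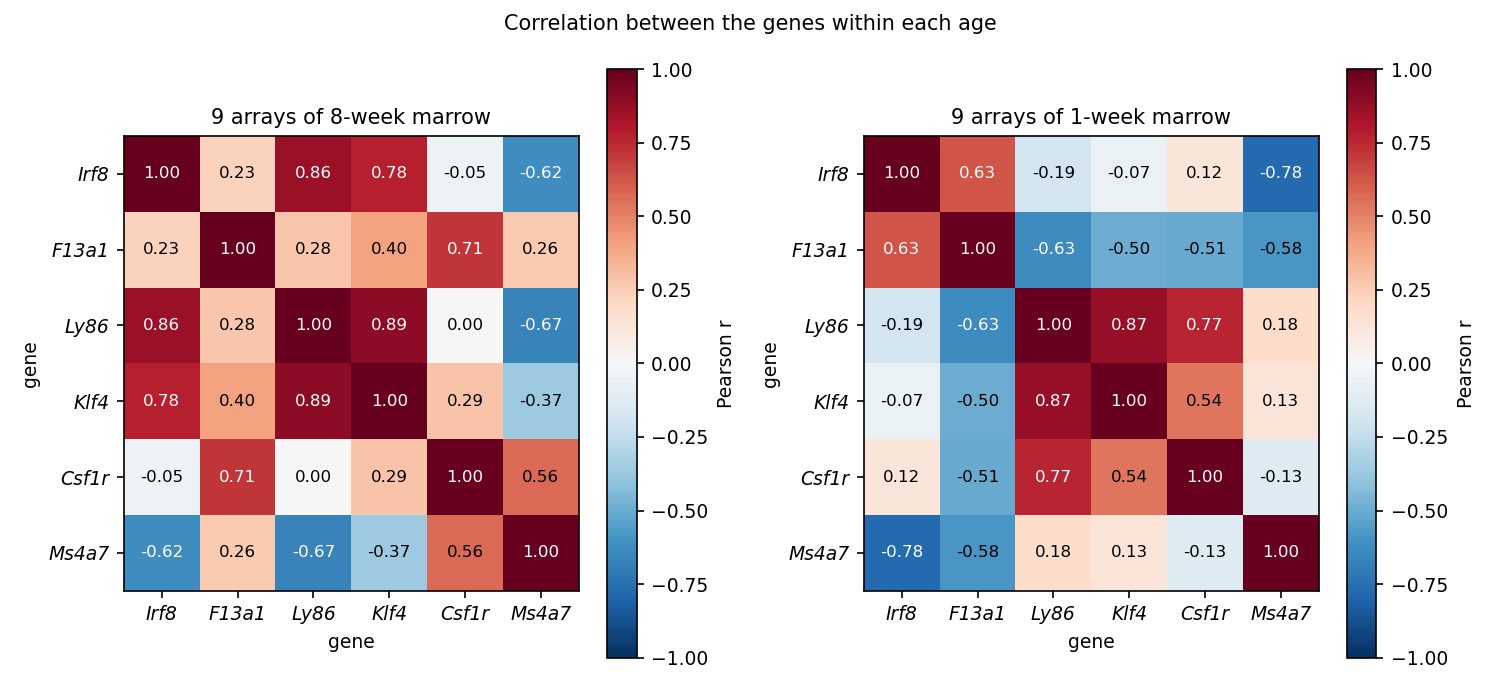
Pearson r between the levels of the 6 genes over the 9 arrays at 8 weeks (left) and the 9 arrays at 1 week (right), on a scale of -1 to 1. Klf4 and Ly86 keep a high r at both ages (0.893 and 0.872), while Ly86 and F13a1 stand at 0.275 at 8 weeks and -0.629 at 1 week.

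Among all tested genes, those most like each of the 6 over 18 arrays were taken by Pearson r. For Ms4a7 they were Cndp2 (a dipeptidase, r = 0.983), the growth factor gene Igf1 (0.977) and the transporter gene Slco2b1 (0.97), and each kept r of 0.952 to 0.989 within either age. Igf1 was above control by 1.95 ± 0.09 at 8 weeks 24 h and below it by -0.79 ± 0.09 at 1 week 6 h (adjusted p = 8.56e-11 and 3.61e-06). For Irf8 they were Fam120b (0.991), Ms4a6b (0.99) and Ms4a6c (0.989), the last 2 from the family of Ms4a7. For Ly86 they were Naaa (0.995), Fcer1a (0.991) and Paqr5 (0.991), and for F13a1 Ctps2 (0.99), Bhlha15 (0.985) and Ccl9 (0.981). Klf4 was most like Parp6, Eif4e3 and S100a4 (0.901 to 0.919), and Hip1r (0.86) and Ppp1r12c (0.857) were among the genes most like Csf1r. For Irf8, Ly86 and F13a1 the pooled r spans the 2 age clusters, and within 1-week arrays F13a1 and Ccl9 gave r = -0.0101.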

How the data were processed

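Bone marrow RNA was measured on 18 one-colour Agilent arrays in 6 labelled groups of 3. The deposited array files hold signal intensity per spot, background-subtracted by Agilent Feature Extraction (9.5.1.1 per the file headers, 11.5.1 per the submitters' processing notes), with 0 or 1 flags per spot in the deposited files. The deposited series matrix holds the authors' log2 values, which recomputation on 11884 probes showed to be shifted by each array's 75th percentile and centred on each probe's median (r = 1, slopes 0.999 to 1, column medians -0.168 to 0.245).

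Here, log2 intensity was averaged over the unflagged spots of a probe (77 to 123 flagged and 0 to 2 saturated spots per array), and each array was shifted by its 75th percentile, which lay at 461.5 to 727.6 intensity units. Of 41174 probes, 24844 matched 1 symbol through RefSeq accessions, 0 matched several and 16330 none. The brightest probe stood for each of 17178 genes, and the test covered the 11884 detected above background throughout at least 1 group (5286 were too dim and 8 incomplete). The 9 comparisons were fitted with limma 3.58.1 in R 4.3.3, with a mean per group over all 18 arrays and variances moderated with an intensity trend (12 residual and 4.33 prior degrees of freedom). P-values are two-sided and adjusted by Benjamini and Hochberg, with calls under 0.05 and 95% intervals. On simulated data for 8 weeks 24 h against control (11884 genes), 75 of 100 log2 changes of 0.5 and 89 of 100 log2 changes of 1 were recovered, with 14 false calls. The number of arrays limits precision.

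Members, 13 gene lists and alternatives were chosen with earlier results of these data known, and some lists share genes. Named are the members, up to 4 list genes per comparison with the smallest adjusted p, the 3 genes most like each member, and fixed partners, apart from some genes that are not reported here. Arrays lie on 5 slides, and slide was tried as a block and within slides. Deviations of same-numbered replicates from their group means had a median r of -0.0145 (45 pairs, -0.267 to 0.319, 9 over 0.1). No pairing was used in the main fit.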

Additional observations from a re-analysis of the deposited data

Results flagged for a closer look

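In 6 cases the response of a gene to irradiation differed between 8-week and 1-week marrow in a test of the difference itself (limma interaction, adjusted p under 0.05). For Ms4a7 the 8-week response exceeded the 1-week response by 1.12 at 6 h and by 0.89 at 24 h on the log2 scale. At 6 h all 3 arrays at 8 weeks lay above their controls, while all 3 at 1 week lay below theirs. For Ly86 the 8-week response was lower, by -0.32 at 6 h and by -0.48 at 24 h. For Klf4 it was lower by -0.49 at 24 h, and for F13a1 it was higher by 0.40 at 24 h. The 6 h difference of Ly86 and the 24 h differences of Klf4 and F13a1 depend on the processing, as given in the next part.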

How the results depend on the processing

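Of 27 called differences of the 6 genes, 15 kept their call under all alternatives and with each array left out. They are the age differences of Irf8, Klf4, Ly86 and F13a1, the 8 called differences of Ms4a7, and for Ly86 both rises at 1 week and the 24 h difference between ages. Over 1080 alternative values, 948 kept direction and side of the threshold, 83 lost the call, 20 gained one and 29 changed sign. The 21 called differences with both groups on 1 slide had the same sign there. All-gene calls for the 6 h difference between ages numbered 1370 with slide as a block, against 2210 without. The cause of the changes below was not tested. The number of arrays limits precision.

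Genes called fell to 1 (of 3) with normexp at 8 weeks 24 h against control. For the 6 h difference between ages 1 (of 2) was called with slide as a block or only the groups compared. For the 24 h difference 2 (of 4) were called with normexp, no dim filter, the replicate block or no intensity trend. For 24 h against 6 h at 1 week 1 (of 2) was called with normexp, the mean of all probes, the slide block, the replicate block or no trend, and at 8 weeks 5 (against 3) with the slide block, 4 scaled on bright probes and 2 with the mean of all probes, no dim filter, only the groups compared or no trend. Replicate numbers were not taken as pairs in the main fit. Of 18 arrays 9 were most like an array of their own number, a count that was not set against chance. With the replicate block 2 genes were called at 8 weeks 24 h against control. Normexp used median signals and set 10 spots of 1 array aside, a choice made after seeing the data.

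With 1 array left out, genes called numbered 1 to 3 at 8 weeks 24 h, 1 to 2 at 8 weeks 6 h, 3 to 4 at 1 week 24 h, 2 to 3 at 1 week 6 h, 4 to 5 for age, 1 to 3 and 2 to 3 for the 6 h and 24 h differences between ages, and 1 to 3 and 1 to 2 for 24 h against 6 h at 8 weeks and 1 week.

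Changes of sign in called differences came from the Csf1r probe with a mean level of -3.46, at -0.146 for age and -0.123 for 8 weeks 24 h against 6 h. It also gave -0.243 (1 week 24 h), 0.106 (8 weeks 6 h), -0.017 (8 weeks 24 h) and 0.226 (24 h difference between ages). The other changes of sign were in uncalled differences. F13a1 at 8 weeks 24 h was -0.036 scaled on bright probes, -0.13 with quantile normalization, -0.081 with normexp, -0.024 with the slide block and -0.055 without 24 h replicate 3. With the slide block Irf8 was -0.017 (1 week 6 h), 0.009 (8 weeks 6 h) and 0.025 (6 h difference between ages), and Csf1r was 0.012 (24 h difference) and 0.05 (1 week 24 h against 6 h). Without 8 weeks 6 h replicate 3, Irf8 was 0.097 (8 weeks 6 h) and 0.044 (6 h difference), and Klf4 was 0.08 (8 weeks 6 h). Klf4 there was 0.056 without 8-week control replicate 2. Irf8 for the 24 h difference was 0.015 with normexp and 0.045 without 1 week 24 h replicate 3. Csf1r for it was 0.053 with the mean of probes and 0.06, 0.01, 0.018 and 0.052 without 1-week control replicate 2, 1 week 24 h replicate 3, 8-week control replicate 2 and 8 weeks 24 h replicate 2. For 1 week 24 h against 6 h without 24 h replicate 3, Klf4 was -0.025 and Ly86 -0.008. With single arrays left out, these ran from -0.098 to 0.097 and -0.12 to 0.08 (Irf8 and Klf4, 8 weeks 6 h), -0.055 to 0.057 (F13a1, 8 weeks 24 h), -0.15 to 0.044 and -0.079 to 0.045 (Irf8, 6 h and 24 h differences), -0.141 to 0.06 (Csf1r, 24 h difference), and -0.025 to 0.188 and -0.008 to 0.101 (Klf4 and Ly86, 1 week 24 h against 6 h).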

Other observations

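Fcgr1, the high-affinity IgG receptor gene, was listed among classical monocyte genes but changed with irradiation as Ms4a7 did. It stood at 2.82, 3.07 and 3 at 8 weeks 24 h and 1.6, 1.65 and 1.39 at 8 weeks 6 h, against 1.04, 1.09 and 1.06 unirradiated. At 1 week it stood at 1.88, 1.83 and 1.91 at 24 h and 0.95, 0.82 and 0.79 at 6 h, against 1.8, 1.32 and 1.51 unirradiated. Its differences from control were 1.90 ± 0.10 and 0.48 ± 0.10 at 8 weeks (adjusted p = 2.9e-10 and 0.00107) and 0.33 ± 0.10 and -0.69 ± 0.10 at 1 week (adjusted p = 0.0175 and 2.72e-05), at 24 h and 6 h in each case. In unirradiated marrow it was lower at 8 weeks by -0.48 ± 0.10 (adjusted p = 0.00047), the 1 classical monocyte gene called in that direction.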
